A study of Mus musculus with 6 samples.

Results

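The RNA interference machinery is described here through 10 genes, Ago1, Ago2, Ago3, Ago4, Dicer1, Drosha, Dgcr8, Tarbp2, Prkra and Xpo5, in cells that had been given small interfering RNA. A probe set, the group of short probes by which the array reads one transcript, was taken when the platform annotation gave it one of these symbols, or the older names Eif2c1 to Eif2c4 or Rnasen, and no other gene. This rule found 27 of the 45037 probe sets on the array and all 10 genes of the 18193 with a symbol of their own. Ago3 had 5 probe sets, Ago2 and Dgcr8 had 4 each, Drosha had 3, and Ago1 had 1. The remaining 5 genes had 2 each.

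The cells were MIN6, an insulin-producing tumour line of mouse origin that stands in for the beta cell of the pancreas. The first group, on 3 arrays, received an siRNA against Hlxb9, the older name of the homeobox factor Mnx1, and the second, also on 3 arrays, received a scrambled negative control siRNA. Both were transfected by nucleofection and RNAiMax, a lipid reagent, and RNA was taken 72 hours later, so cells without any siRNA are not part of the comparison. Array samples had been picked for Hlxb9 protein knockdown of over 75% on a western blot, and the labels call the samples sorted subpopulations without naming a gate. Values are log2 signals from RMA, which corrects background, equalises the arrays and gives each probe set a single value. The study asks which genes depend on Hlxb9. For the genes here it sets one siRNA against another, both of which enter the same machinery.

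As background, a microRNA starts as a hairpin in a long nuclear transcript. Drosha, an RNase III enzyme, cuts the hairpin at its base while Dgcr8, its double-stranded RNA-binding partner, holds it, and the pair is called the Microprocessor. Xpo5 carries the freed hairpin out of the nucleus, and Dicer1 cuts off its loop with help from the binding proteins Tarbp2 and Prkra. The resulting short duplex is loaded into an Argonaute protein, encoded by Ago1 to Ago4, of which Ago2 is the main one that cuts a matching target. Synthetic siRNA joins this route at the Argonaute step without need of Drosha or Xpo5. In beta cells, Dicer1 is known from mouse knockouts to be needed for insulin production.

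The Dgcr8 gene carries a substrate of its own enzyme complex. The hairpin of microRNA 1306 lies within the span of Dgcr8 at chr16:18284239-18284317 on the minus strand (GRCm38.p6, RefSeq), and the Microprocessor is known to cut Dgcr8 messenger RNA at such hairpins, which lowers Dgcr8. The hairpin is printed to show what the members act on. Capitals mark the mature arms, the 5p arm of 23 bases first and the 3p arm of 21 bases second, which Drosha frees at the open end and Dicer1 frees from the loop between them.
microRNA 1306 hairpin: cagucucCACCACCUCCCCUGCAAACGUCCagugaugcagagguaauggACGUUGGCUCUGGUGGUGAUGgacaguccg

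Of the 10 genes, 9 matched a RefSeq promoter, the 250 bases before and 50 bases after the gene start, and Ago2 is named only. The promoters of Ago1, Drosha and Dgcr8 are printed because these were the genes with a probe set on which the groups did not overlap. Capitals mark CCAAT, or ATTGG where the motif reads on the other strand, the letters known as the binding site of the factor NF-Y.
Ago1 promoter, chr4:126468582-126468881, minus strand: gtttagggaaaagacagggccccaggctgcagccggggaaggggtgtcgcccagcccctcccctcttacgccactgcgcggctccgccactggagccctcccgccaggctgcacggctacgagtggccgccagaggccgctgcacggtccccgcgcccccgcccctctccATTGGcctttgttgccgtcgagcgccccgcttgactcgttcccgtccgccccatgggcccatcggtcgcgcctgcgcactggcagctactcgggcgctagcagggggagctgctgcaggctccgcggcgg
Drosha promoter, chr15:12824565-12824864, plus strand: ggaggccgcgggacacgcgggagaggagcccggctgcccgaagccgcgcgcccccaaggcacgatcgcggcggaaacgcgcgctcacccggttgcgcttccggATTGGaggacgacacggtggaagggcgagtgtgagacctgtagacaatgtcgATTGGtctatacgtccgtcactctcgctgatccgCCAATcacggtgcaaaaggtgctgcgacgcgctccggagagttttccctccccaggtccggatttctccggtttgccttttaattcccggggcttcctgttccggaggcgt
Dgcr8 promoter, chr16:18289119-18289418, minus strand: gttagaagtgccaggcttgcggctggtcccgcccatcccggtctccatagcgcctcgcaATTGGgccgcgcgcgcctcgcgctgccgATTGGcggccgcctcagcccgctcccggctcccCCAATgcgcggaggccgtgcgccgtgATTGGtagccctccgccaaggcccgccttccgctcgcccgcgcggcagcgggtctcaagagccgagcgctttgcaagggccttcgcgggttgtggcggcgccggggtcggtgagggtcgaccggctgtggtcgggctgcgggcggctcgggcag
The motif occurs 1 time in the Ago1 window, 3 times in that of Drosha and 4 times in that of Dgcr8. Among member promoters 5 of 9 hold it, those of Ago1, Drosha, Dgcr8, Dicer1 and Tarbp2, against 41.1% of 27025 genes of all kinds. GGGCGG, a GC box, was found on either strand in 8 of 9, all but Drosha, against 38.2% of all genes. TATAAA was found in 0 of 9, against 15.7%. Both strands were searched for each, and none of the motifs contains another. Where RefSeq lists several starts for a gene, a motif in any of their windows counts, and CG pairs are taken from the window with the most. Ago1 has a second window, not printed, with 38 CG pairs, against 31 in the printed one, which is the first listed. On this count the members held 16 to 54 CG pairs, with a median of 38, against a median of 8 over all genes. RefSeq places Ago3, Ago1 and Ago4 side by side on chromosome 4, with Ago2 on chromosome 15.

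The targeted gene was read first. Mnx1 gave 7.53, 7.41 and 7.28 log2 in Hlxb9 siRNA cells, against 7.82, 7.50 and 7.77 in control siRNA cells. Hlxb9 siRNA replicate 1 lay above control replicate 2, so the groups overlapped. The difference of -0.29 ± 0.13 log2 (SE, n = 3 each) did not pass by limma (adjusted p = 0.659). The exact permutation test, two-sided, gave p = 0.2, where 0.1 is the smallest possible. Arrays of equal number differed by -0.28, -0.09 and -0.49, all lower after Hlxb9 siRNA, and with the replicate number as a block the difference did not pass either (limma adjusted p = 0.544). The transcript thus leaned in the direction of the labels without passing. These are values of bulk RNA, in which fewer cells with a transcript and less of it per cell cannot be told apart.

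Median signals of the arrays lay between 5.08 and 5.20 log2. Control replicate 3 stood apart, with correlations of 0.988 to 0.991 to the others, which correlated at 0.995 or higher among themselves. Its Gapdh signal was higher at the 3' end than at the 5' end by 2.13 log2, a sign used for RNA quality that read 0.65 to 0.78 elsewhere. Its part in the results was not tested, so values without it are given where they matter. Of 8 measured beta cell markers all read 9.18 log2 or more on every array, among them Ins2 at 13.8 and Iapp at 14.3 or higher. Of 22 measured markers of other cell types, 8 lay above the median of all probe sets. All 3 duct and all 3 endothelial markers stayed at 4.09 or lower, whereas 1 of 2 acinar markers (Cela1, 5.55 to 6.16), 1 of 4 fibroblast markers (Col1a1, 5.80 to 6.52) and 1 of 4 leukocyte markers (Cd68, 6.66 to 7.41) were brighter. Cd68 differed by 0.54 log2 (limma adjusted p = 0.645), and its part in the results was not tested. The endocrine hormone genes Gcg and Sst were also bright, at 12.5 log2 or more, and Ppy ran from 8.55 to 10.95 after Hlxb9 siRNA, against 7.32 to 9.86 after control siRNA.

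None of the 27 member probe sets passed limma's threshold of an adjusted p of 0.05 (adjusted p from 0.653 to 0.997). On the whole array 0% of probe sets passed. At an unadjusted p under 0.05 there was 1 of the 27 members, higher after Hlxb9 siRNA, against 7.62% of all probe sets and 3.86% in that direction. All Hlxb9 siRNA values lay above all controls for 3 of the 27, those of Ago1, Drosha and Dgcr8, and below for 0. The 11.1% that this makes can be read against 15.6% over the array, of which 8.27% were higher and 7.29% lower. Differences of the members ran from -0.28 to 0.35 log2, and their median size of 0.12 was close to the 0.12 of all probe sets. The 95% interval of each of the 27 lay within 1 log2 of zero, so a 2-fold change in either direction fell outside all of them, and 26 of the 27 included zero. With the replicate number as a block 3 members (Dicer1 1427941_at and Dgcr8 1455311_at and 1422981_at, all higher) had an unadjusted p under 0.05, against 9.31% of all probe sets. Leaving out control replicate 3 gave 2, against 9.51%. Both of these, Dicer1 1460571_at and Ago3 1441063_at, were lower, and Dicer1 1427941_at was not among them. With array weights, which called 2.51% of the array, 0 of the 27 members passed the adjusted threshold.

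**Figure D1:**
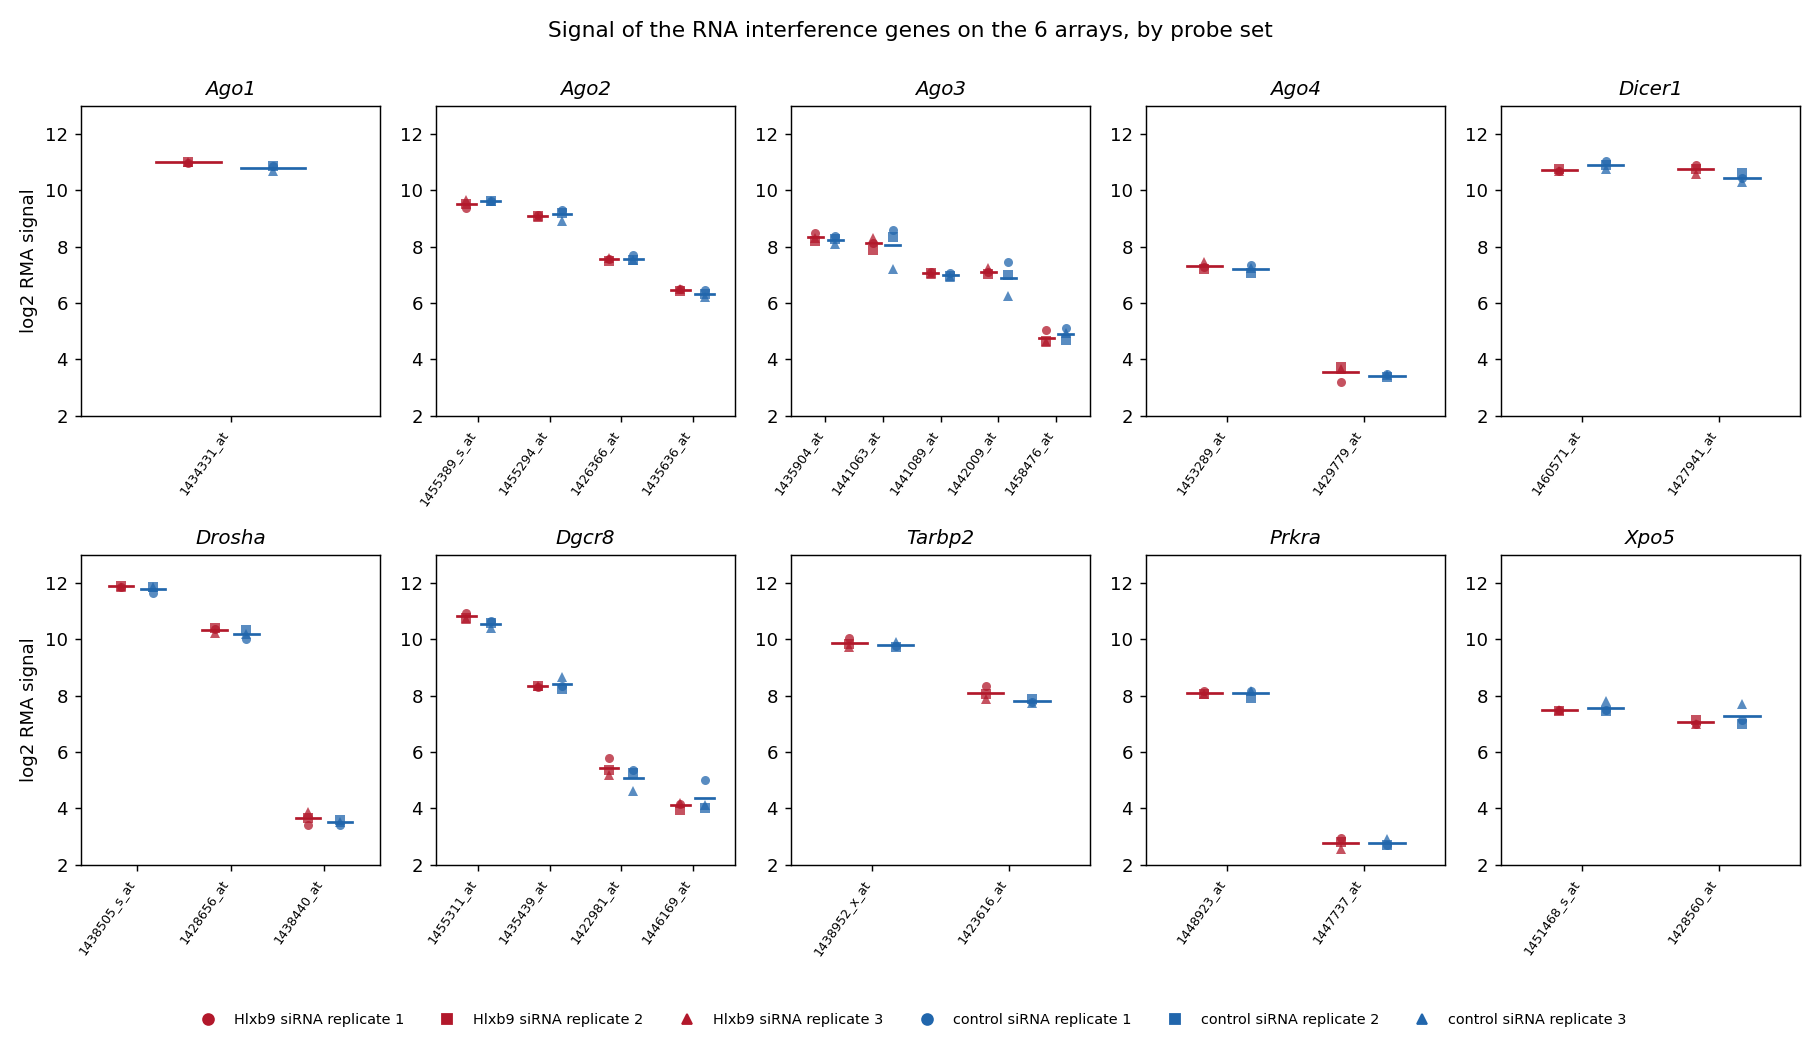
The log2 RMA signal (vertical axes) of each probe set (horizontal axes) is plotted by gene, with 1 symbol per array and a bar at the mean of the 3 arrays, Hlxb9 siRNA in red left of control siRNA in blue. Members differ little between the groups beside their spread, and control replicate 3 is low on 1441063_at and 1442009_at of Ago3 and high on both probe sets of Xpo5.

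In the Microprocessor, both genes leaned upward on their brightest probe set, and neither passed. Dgcr8 (1455311_at) gave 10.94, 10.76 and 10.71 log2 after Hlxb9 siRNA, against 10.64, 10.58 and 10.38 after control siRNA. Every Hlxb9 siRNA array lay above every control, and the gap between the nearest arrays was small beside the spread within each group. The difference was 0.27 ± 0.12 log2 (SE), 1.21-fold (limma adjusted p = 0.659), and 0.19 without control replicate 3. Arrays of equal number differed by 0.30, 0.18 and 0.33, all in one direction.

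Of the other probe sets of Dgcr8, 1 pointed the same way and 2 the other way. On 1435439_at the arrays read 8.31, 8.34 and 8.33 after Hlxb9 siRNA, against 8.32, 8.22 and 8.65 after control siRNA, so the high value of control replicate 3 set the difference of -0.07, which was 0.06 without that array. On 1422981_at the arrays read 5.77, 5.36 and 5.17, against 5.35, 5.26 and 4.63, a difference of 0.35 ± 0.23 (SE) that shrank to 0.13 without control replicate 3, and its numbered pairs differed by 0.41, 0.10 and 0.55, all upward as on 1455311_at. The dim 1446169_at read 4.17, 3.95 and 4.18, against 4.99, 4.03 and 4.11, where control replicate 1 alone was high (difference -0.28 ± 0.25). Over all 6 arrays the 4 probe sets of Dgcr8 thus split evenly by direction. Without control replicate 3 only the dim 1446169_at stayed lower, at -0.41.

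Drosha was higher on all 3 of its probe sets. The brightest, 1438505_s_at, gave 11.86, 11.89 and 11.86 log2 after Hlxb9 siRNA, against 11.62, 11.84 and 11.84 after control siRNA. The groups did not overlap, but only control replicate 1 stood clearly lower, and the other controls lay close to the Hlxb9 siRNA arrays. The difference was 0.10 ± 0.11 log2 (SE, limma adjusted p = 0.808). On 1428656_at it was 0.15 ± 0.12, with 10.36, 10.40 and 10.20 against 10.00, 10.32 and 10.18, and the groups overlapped. The third, 1438440_at, lay below the median of all probe sets, 5.16 log2, with 3.40 to 3.86 after Hlxb9 siRNA against 3.41 to 3.58 after control siRNA.

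Xpo5, the export receptor of the hairpins, read 7.50, 7.44 and 7.48 log2 after Hlxb9 siRNA, against 7.47, 7.45 and 7.79 after control siRNA, on 1451468_s_at. Its other probe set, 1428560_at, read 6.99, 7.13 and 7.01, against 7.14, 6.99 and 7.71. On both, control replicate 3 was the high array and the other 5 overlapped. The differences were -0.09 ± 0.12 and -0.24 ± 0.18 log2 (SE), and they became 0.02 and -0.02 without control replicate 3.

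Dicer1, the enzyme that makes the final duplex, was the one gene in which a probe set reached an unadjusted p under 0.05, and its pair of probe sets pointed in opposite directions. On 1427941_at the arrays read 10.90, 10.75 and 10.59 log2 after Hlxb9 siRNA, against 10.43, 10.60 and 10.30 after control siRNA. Hlxb9 siRNA replicate 3 fell just under control replicate 2, so the groups overlapped by 1 array. The difference was 0.30 ± 0.13 log2 (SE), 1.23-fold (limma adjusted p = 0.653), with an interval from 0.0025 to 0.60. It was 0.23 without control replicate 3 (limma unadjusted p = 0.109, adjusted p = 0.585).

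On 1460571_at the arrays read 10.68, 10.76 and 10.69 log2 after Hlxb9 siRNA, against 11.05, 10.89 and 10.75 after control siRNA. Here the controls were the higher group, again with an overlap of 1 array. The difference was -0.19 ± 0.11 log2 (SE, limma adjusted p = 0.695), and -0.26 without control replicate 3 (limma unadjusted p = 0.0345, adjusted p = 0.506). Within the pairs of equal number, 1427941_at was higher after Hlxb9 siRNA by 0.47, 0.15 and 0.28, and 1460571_at differed by -0.37, -0.13 and -0.06.

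The gap between these probe sets was then taken on each array, a measure chosen after the values had been seen. The signal of 1427941_at minus that of 1460571_at was 0.22, -0.0040 and -0.10 log2 after Hlxb9 siRNA, against -0.62, -0.29 and -0.45 after control siRNA. The groups did not overlap, and the gap differed by 0.49 log2. The gap restates the opposite directions for which the probe sets were picked, so it is a description, and neither probe set passed. Which stretch of the transcript each reads is not given in the sources used here. Both probe sets were brighter than 91.9% of the array or more, so neither was dim.

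**Figure D2:**
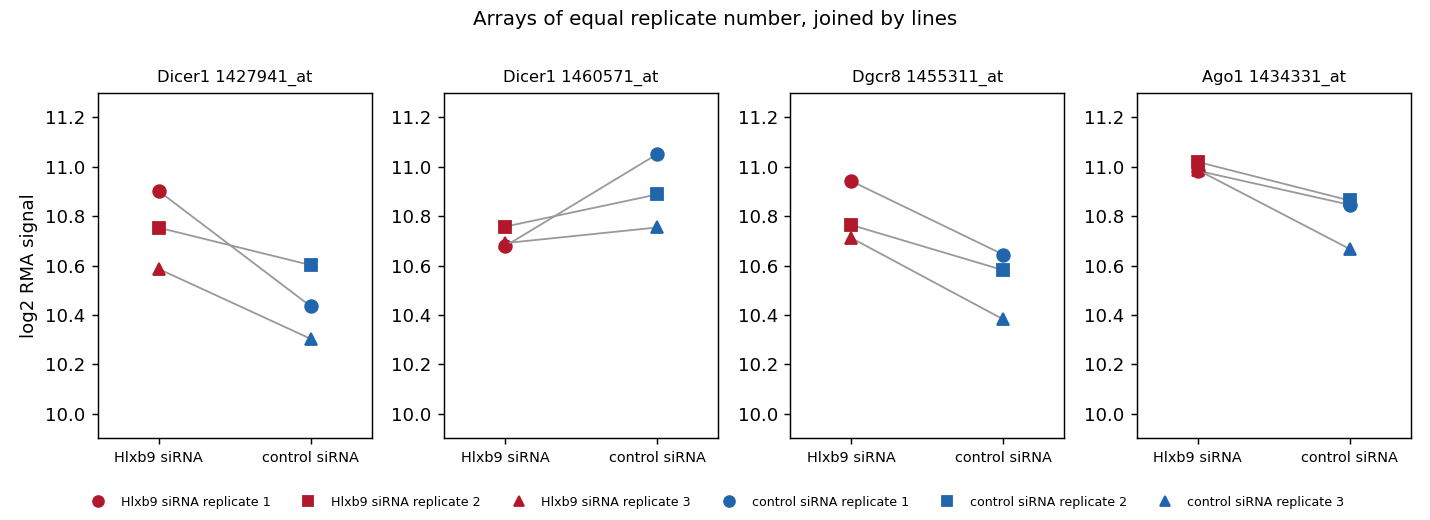
The log2 RMA signal (vertical axes) of the Dicer1 probe sets and of the brightest probe sets of Dgcr8 and Ago1 is plotted for Hlxb9 siRNA (left) and control siRNA (right), with lines joining arrays of equal replicate number. All 3 lines go one way in each panel, with Hlxb9 siRNA lower on Dicer1 1460571_at and higher on the other probe sets.

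The double-stranded RNA-binding partners of Dicer1, Tarbp2 and Prkra, both differed little on their brightest probe sets, and Tarbp2 leaned upward on its dimmer one. Tarbp2 on 1423616_at gave 8.34, 8.04 and 7.86 log2 after Hlxb9 siRNA, against 7.79, 7.88 and 7.72 after control siRNA. Hlxb9 siRNA replicate 1 was the high array, replicate 3 lay just under control replicate 2, and the difference of 0.29 ± 0.14 log2 (SE), 1.22-fold, did not pass (limma adjusted p = 0.667). The brighter Tarbp2 probe set, 1438952_x_at, whose suffix marks probes that can bind related sequences, gave 10.03, 9.82 and 9.72, against 9.74, 9.74 and 9.88, a difference of 0.07 ± 0.12. Prkra, also known as PACT, an activator of the kinase PKR, gave 8.17, 8.05 and 8.05 log2, against 8.17, 7.92 and 8.14, and differed by 0.01 ± 0.11 (SE), with an interval from -0.25 to 0.27. Its second probe set was among the dimmest of the array, between 2.56 and 2.96.

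Among the Argonautes, Ago1 was read by a single probe set, on which no control reached the lowest Hlxb9 siRNA array. This probe set gave 10.98, 11.02 and 10.99 log2 after Hlxb9 siRNA, against 10.85, 10.86 and 10.67 after control siRNA. The SDs were 0.02 after Hlxb9 siRNA and 0.11 after control siRNA. The difference was 0.20 ± 0.10 log2 (SE), 1.15-fold (limma adjusted p = 0.667), and 0.14 without control replicate 3, the lowest array.

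Ago2, the slicing Argonaute, was near 0 or slightly lower on its 3 brighter probe sets. The brightest, 1455389_s_at, gave 9.38, 9.50 and 9.66 log2 after Hlxb9 siRNA, against 9.61, 9.63 and 9.64 after control siRNA. The controls lay close together, and Hlxb9 siRNA replicate 3 exceeded them all. The difference was -0.11 ± 0.11 log2 (SE, limma adjusted p = 0.800). The next probe sets differed by -0.05 ± 0.12 (1455294_at) and -0.03 ± 0.11 (1426366_at), and the dimmest, 1435636_at, by 0.14 ± 0.10, or by -0.16, -0.06 and 0.08 without control replicate 3. The highest upper limit among the 4 intervals was 0.38 log2 and the lowest lower limit -0.36.

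Ago3 showed the largest effect of a single array. On 1441063_at the arrays read 8.15, 7.89 and 8.30 log2 after Hlxb9 siRNA, against 8.58, 8.35 and 7.20 after control siRNA, and on 1442009_at 7.09, 7.02 and 7.23, against 7.45, 6.98 and 6.24. Control replicate 3 was the low array on both. The differences of 0.07 ± 0.33 and 0.22 ± 0.27 log2 (SE) turned to -0.36 (limma unadjusted p = 0.0449, adjusted p = 0.517) and -0.10 without it. The brightest probe set, 1435904_at, gave 8.50, 8.19 and 8.31, against 8.37, 8.27 and 8.10, a difference of 0.09 ± 0.13, or 0.01 without that array. Another, 1441089_at, differed by 0.09 ± 0.10, and the dimmest, 1458476_at, by -0.12 ± 0.16.

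Ago4 gave 7.26, 7.22 and 7.44 log2 after Hlxb9 siRNA, against 7.36, 7.05 and 7.25 after control siRNA, on 1453289_at. The groups overlapped, and the difference was 0.09 ± 0.12 (SE, limma adjusted p = 0.854). Its other probe set lay between 3.21 and 3.75 on every array, below the median of all probe sets.

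**Figure D3:**
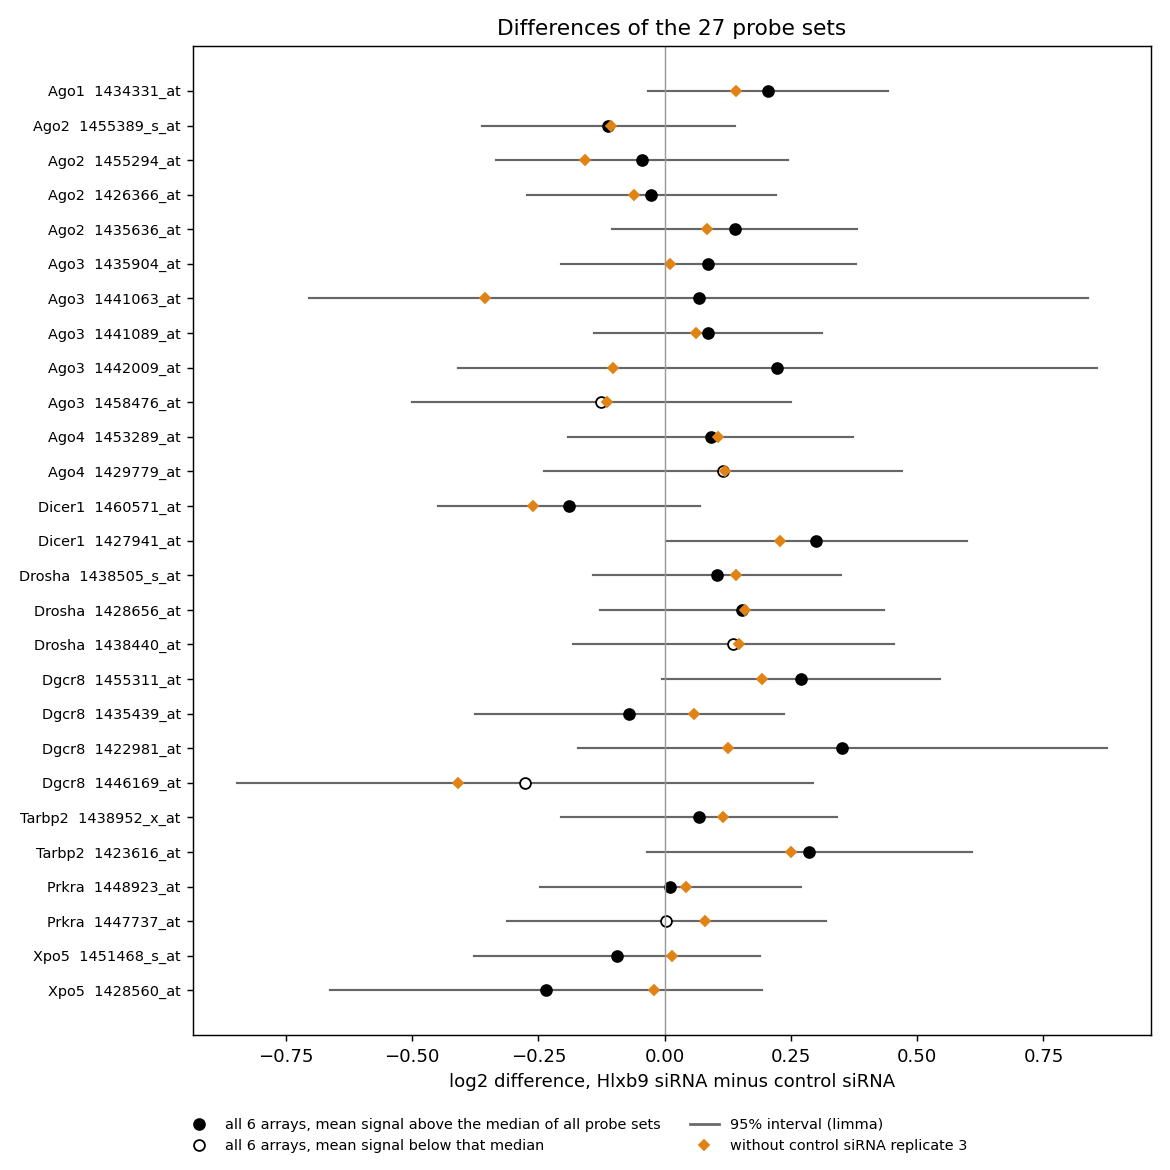
Each row is a probe set, and the horizontal axis is the log2 difference of Hlxb9 siRNA minus control siRNA, with limma's 95% interval over all 6 arrays (circles and lines) and the difference without control replicate 3 (diamonds). The interval of 1427941_at of Dicer1 starts at 0.0025 and those of the other probe sets include 0, while the diamonds of Ago3 1441063_at and 1442009_at lie on the other side of 0 from the circles.

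Taken by gene on the brightest probe set, 7 members were higher and 3 lower after Hlxb9 siRNA, with a median difference of 0.08 log2 against 0.0023 over all 18193 genes, and with each array centred on its median 6 were higher and 4 lower. Of the 18193 genes, 9201 were higher on their brightest probe set. The brightest probe sets of the 10 members all lay above the median signal of the array. Among the 22519 probe sets left once dim ones were set aside, the median difference was 0.048 log2. Bright probe sets in general thus shared part of the upward lean. Over the 27 probe sets 18 were higher (66.7%, against 51% of all probe sets) and 9 lower, or 16 and 11 after that centring. Centring moved every difference by the same amount, and the median of all probe sets went from 0.0041 to -0.048. The median over genes was -0.0079 without Hlxb9 siRNA replicate 1, so 1 array set its sign. Of the 9 genes with several probe sets, 4 (Ago2, Ago3, Dicer1 and Dgcr8) had probe sets in both directions, against 59.3% of the 9010 such genes on the array. Control replicate 3 was the array farthest from the mean in 11 of the 27 member probe sets, against 41.2% of all probe sets, and Hlxb9 siRNA replicate 2 was so in 0, against 7.65%. In 11 of the 27, or 40.7%, the 3 numbered pairs differed in one direction, against 34% of all probe sets.

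Other genes of the pathway were read from 8 lists, with 62 of 66 entries matched to a gene, each on its brightest probe set. None of the 62 passed limma's adjusted threshold, where 0% of the array did. At an unadjusted p under 0.05 there were 4 lower (Khsrp, Ddx5, Ranbp2 and Mov10) and 0 higher, against 3.76% and 3.86% of all probe sets. Hlxb9 siRNA arrays lay below all controls for 14 of the 62 and above for 2, against 7.29% and 8.27% of all probe sets. On the brightest probe set of each of the 18193 genes, 1410 lay below and 1737 above. Of these genes, 680 were lower and 766 higher at an unadjusted limma p under 0.05.

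Partners of the Microprocessor were lower in all 8 measured genes, with a median difference of -0.15 log2 (range -0.55 to -0.04). The groups did not overlap in 5 of the 8, against 1410 of all 18193 genes in that direction. An unadjusted limma p under 0.05 was reached by 2 of the 8, against 680 of those genes in that direction. Centring moved every difference downward by the same amount, so it could not raise any of the 8. After repeated quantile normalization all 8 were still lower. Khsrp, which binds hairpin loops and aids their processing, gave 9.61, 9.99 and 10.01 log2 after Hlxb9 siRNA, against 10.49, 10.34 and 10.45 after control siRNA (difference -0.55 ± 0.13, SE, limma adjusted p = 0.645). The helicase gene Ddx5, whose protein joins the Drosha complex, gave 12.36, 12.20 and 12.36, against 12.67, 12.49 and 12.86 (-0.36 ± 0.12, or -0.27 without control replicate 3). Hnrnpa2b1, which recognises marked primary transcripts, differed by -0.22 ± 0.10. The brightest probe sets carry a suffix in 7 of these 8 genes, and it is _x_at in 3, among them Khsrp and Ddx5. The other probe sets of Khsrp differed by 0.0010 to 0.09, and those of Ddx5 by -0.53 to 0.08. Of the 21 other probe sets of all 8 genes 13 were lower and 8 higher. When the probe sets of a gene were averaged the median was -0.10, with plain _at probe sets alone it was -0.05, and without control replicate 3 it was -0.12, with 7 of 8 lower. The median difference of all 2441 probe sets with this _x_at suffix was -0.07, against 0.0085 for all others. Without control replicate 3 these medians were -0.03 and 0.016.

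Silencing effectors, which act on the target after Argonaute has bound, were lower in 17 of 23 genes, with a median of -0.12 log2, and in 17 of 23 without control replicate 3. When all probe sets of a gene were averaged, the median turned to 0.01, and with plain _at probe sets alone it was -0.11. The direction thus depends on the choice of probe set. Without Hlxb9 siRNA replicate 1 the median was -0.06. Mov10, an RNA helicase found with Argonaute, gave 3.75, 3.37 and 3.75 log2 after Hlxb9 siRNA, against 3.88, 4.41 and 3.98 after control siRNA, all below the median of the array (difference -0.47 ± 0.17, SE, limma adjusted p = 0.645). The deadenylase gene Cnot7 was at -0.24 ± 0.12 (-0.15 without control replicate 3, and its other probe sets at 0.07 and 0.10), and Tnrc6b, one of the GW182 proteins that tie Argonaute to the deadenylases, at -0.22 ± 0.11, with others from -0.18 to -0.07. The GW182 genes Tnrc6a and Tnrc6c differed by 0.18 and -0.10, and by -0.12 and -0.22 without control replicate 3.

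The remaining lists were smaller or split. Among 5 nuclear export partners, Ranbp2, a pore protein that binds Ran, differed by -0.35 ± 0.13 log2 (SE, limma adjusted p = 0.645), Ran, the GTPase that Xpo5 needs to hold its cargo, by -0.22 ± 0.14 and its exchange factor Rcc1 by 0.14 ± 0.12, with a median of -0.06. Without control replicate 3 Ranbp2 was at -0.30, Ran at -0.08 and Rcc1 at 0.06. Other probe sets of Ranbp2 differed by -0.27 to 0.20 over all 6 arrays. Of 9 precursor regulators 6 were higher and 3 lower, but 3 and 6 after centring, with Adarb1 at 0.18, Dis3l2 at -0.23 and the dim Lin28b at -0.15 log2. Without control replicate 3 these were 0.08, -0.05 and -0.07, and 4 of the 9 were higher and 5 lower. Of 8 genes of Argonaute loading and passenger strand removal 4 were higher and 4 lower, with Hspa4 at 0.21, Tsnax, a subunit of the passenger strand nuclease, at 0.18 and Fkbp4 at 0.14. Of 5 uptake and decay genes Xrn2 differed by 0.14, Sidt2 by 0.08 and Eri1 by -0.08, or by 0.05, 0.07 and -0.13 without control replicate 3. In that list 4 were higher and 1 lower, but 2 and 3 after centring.

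The Piwi genes, germline relatives of the Argonautes, lay below the median of the array on all 3 probe sets used, between 2.66 and 4.35 log2, with Piwil1 at a difference of -0.20, Piwil4 at 0.18 and Piwil2 at -0.18, the last at -0.01 without control replicate 3. Eif2ak2, the kinase PKR that Prkra activates and Tarbp2 restrains, gave 8.85, 8.84 and 8.81 log2 after Hlxb9 siRNA, against 8.70, 8.72 and 7.79 after control siRNA. The groups did not overlap, and control replicate 3 was far below the rest. The difference of 0.43 ± 0.24 log2 (SE, limma adjusted p = 0.686) was 0.12 without that array.

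**Figure D4:**
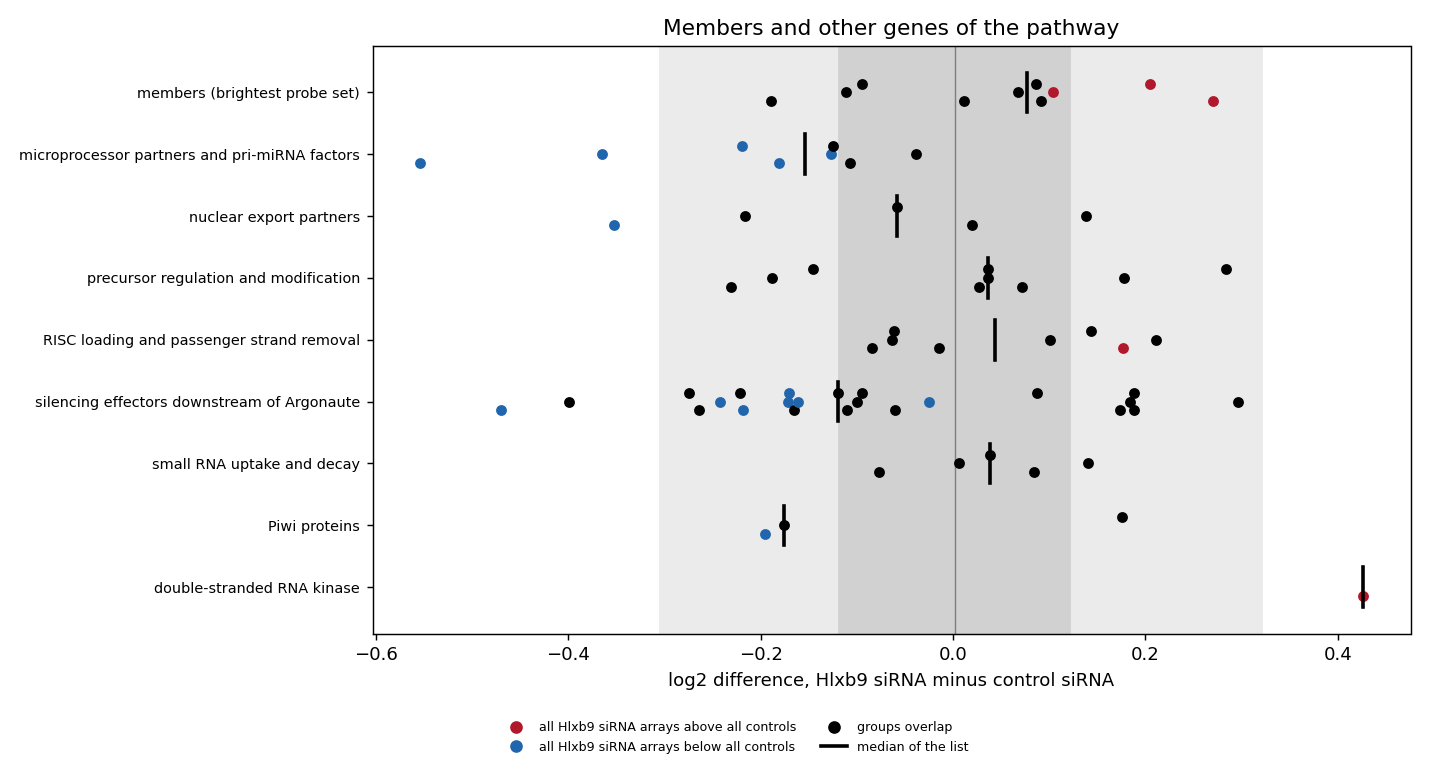
The log2 difference of Hlxb9 siRNA minus control siRNA (horizontal axis) is plotted for each member and pathway gene on its brightest probe set, 1 point per gene with small vertical offsets, and a bar at the median of each list. Red and blue points mark genes with all Hlxb9 siRNA arrays above or below all controls. Light and dark bands hold the central 5 to 95% and 25 to 75% of all genes, from -0.30 to 0.32 and from -0.12 to 0.12. Members lie inside the light band, and all 8 Microprocessor partners lie left of 0.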

How the data were processed

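Per the labels' protocols, biotinylated cRNA from 6 ug of total RNA was put on an Affymetrix mouse array. The deposited values are log2 signals, with RMA and Partek named, without versions or settings, in the submitters' processing notes. Array signal has no depth, so precision rests on the number of arrays. Of 45101 probe sets, 64 controls were set aside. The platform annotation gave 34945 probe sets 1 symbol and 932 several, and 9160 are unnamed here. A RefSeq table of GRCm38.p6, matched by Entrez identifier, changed 0 symbols.

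Limma 3.58.1 (R 4.3.3, lmFit and eBayes, no covariate, two-sided) compared Hlxb9 siRNA with control siRNA over 45037 probe sets, with Benjamini-Hochberg adjustment and a threshold of 0.05. On simulated data it recovered 0 of 100 probe sets changed by 0.5 log2 and 39 of 100 changed by 1 log2, with 0 false calls. Changes of the size seen in the members would thus rarely pass. The brightest probe set by mean stands for a gene in lists. Apart from the gap between the Dicer1 probe sets and the rank of a signal on the array, levels of different probe sets were not compared. Members, lists and tests were chosen with earlier results of these data known. The rule names Mnx1, all members and up to 3 genes per pathway list by smallest p. Tnrc6a and Tnrc6c were chosen after their values were seen. Replicates are treated as separate transfections.

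Arrays of equal number deviated together from their group means (r of 0.155, 0.165 and 0.202, against 0.072 or lower between different numbers). Pairing by number was therefore fitted as an alternative, the replicate block. This pairing comes from the values alone, as the labels give no shared day or culture. Deviations cancel out within each group, so r between different numbers depends on r between equal numbers and is no separate reference. SEs, intervals and p-values are those of the unpaired fit unless another fit is named. Alternatives were the replicate block, centring, repeated quantile normalization, an offset of 32, a filter on dim probe sets, a variance trend, array weights, each array left out, and other choices of probe set.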

Additional observations from a re-analysis of the deposited data

How the results depend on the processing

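No member probe set passed an adjusted p of 0.05 under any alternative run, or an adjusted p of 0.1. On the whole array 0 probe sets passed, except 1132 with array weights, under which the smallest adjusted p of a member was 0.147 and Mov10, of the pathway genes named, passed (adjusted p = 0.0401). These weights rest mostly on control replicate 2 (4.46) and Hlxb9 siRNA replicate 2 (2.91). Member probe sets at an unadjusted p under 0.05 numbered 1, and 3 with the replicate block (limma), the offset of 32 or the variance trend with a robust prior, 4 with array weights, and 0 after centring or repeated quantile normalization. They ranged from 0 to 2 as each array was left out, and were 2, both lower, without control replicate 3. The replicate block changed no call of a member at the adjusted threshold. The median over member genes was 0.025 after centring and 0.030 after repeated quantile normalization, and ranged from -0.0079 to 0.089 as each array was left out. Prkra turned to -0.041 after centring and -0.040 after repeated quantile normalization, and ranged from -0.067 to 0.058 without single arrays. Ago3 was -0.015 with array weights, and Dicer1 was 0.056 with the mean of its probe sets. Without Hlxb9 siRNA replicate 1, Tarbp2 was -0.019 on its brightest probe set, and without control replicate 3, Xpo5 was 0.016 on its. Ranges without single arrays ran from -0.019 to 0.14 for Tarbp2 and from -0.16 to 0.016 for Xpo5. Centring lowered every difference on the array by the same amount, and took the median of all probe sets from 0.0041 to -0.048. The cause of the other shifts was not tested. The number of arrays and the 5 member probe sets below the median signal limit what could be seen.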
